A study of Mus musculus with 17 samples.

Results

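The transcripts described here encode the cytoskeleton of the axon. They belong to 10 genes: Nefh, Nefm, Nefl and Ina of the neuronal intermediate filaments, Mapt, Map1a, Map1b and Map2 of the microtubule-associated proteins, and Gap43 and Stmn2 of the growth cone. Every probe set that the array annotation gives to 1 of these symbols alone was taken, which left 23 of the 45037 probe sets of the array. A probe set is a group of short probes that together give 1 signal for a transcript. Mapt and Map2 each had 4 such probe sets, Ina and Map1b 3, Nefl, Map1a and Stmn2 2, and Nefh, Nefm and Gap43 1. The study asked how loss of the FOXO transcription factors affects the ageing brain and examined degeneration of axons, and the comparison here asks whether transcripts of the axonal cytoskeleton differed in the neurons that lacked these factors.

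RNA of laser-captured dentate gyrus was available from 8 KO and 7 WT mouse samples. KO animals carried floxed Foxo1, Foxo3 and Foxo4 alleles and the hGFAP-cre transgene, which is active in a common progenitor and so deletes in neurons and in glia. Their background mixed the strains FVB and B6. The sources used here give neither age nor sex for these samples and do not say whether WT animals carried floxed alleles or cre. The tissue is labelled brain, and that it was dentate gyrus is taken from the study's methods. The markers of the KO library labelled 433 go against this, as given below. Marks 433 (KO) and 437 (WT) each have a second sample whose label adds CA13, a term that is not explained, and neither of these was placed in a group. Each mark is read as 1 animal, although nothing states this directly, and p-values then rest on a spread between samples that may be partly technical.

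A neurofilament is a polymer of the light, medium and heavy subunits encoded by Nefl, Nefm and Nefh, joined in central neurons by alpha-internexin, the product of Ina. Neurofilaments set the calibre of large axons, and subunits released from damaged axons are measured in clinical practice as a sign of axonal injury. Tau, encoded by Mapt, binds microtubules mainly in the axon, MAP2 does so in dendrites and the cell body, and MAP1A and MAP1B are found in both, with MAP1B prominent while neurites grow. GAP43 is a membrane protein of growth cones and presynaptic endings, and stathmin-2 binds tubulin and supports growth and repair of axons.

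The labels of the groups were checked first. The brightest Foxo1 probe set lay between 7.33 and 9.44 in KO and between 12.33 and 13.94 in WT on the scale of log2(signal + 32), which is used for all levels here and which understates the fold change of a dim probe set. Its difference was -5.08 (adjusted p = 1.16e-07 from limma). Probe sets of Foxo3 differed by -0.46, -0.37 and -0.10 (unadjusted p = 0.0140, 0.0125 and 0.698 from limma). The KO and WT ranges of Foxo4 overlapped. Its probe sets, both dim, differed by 0.43 and -0.56 (unadjusted p = 0.146 and 0.00537 from limma). No probe set of Foxo3 or Foxo4 reached an adjusted p under 0.05. The mean level of 8 granule neuron markers was 11.03 to 11.37 in WT and 10.97 to 11.33 in 7 KO samples, but 8.03 in the library labelled 433. For 9 CA pyramidal markers the mean was 10.22 there, against 7.98 to 8.81 in the other 7 KO samples. In the library labelled 433CA13 both means, 11.18 and 8.24, lay within those of the unmarked samples. The markers of the libraries 433 and 433CA13 thus go against their labels, and the KO group is given with and without the library labelled 433. Median signal per array was 88.1 to 122.99. Each sample label ends in a code whose number is read here as an array series, although the sources used do not state this. So read, the 15 unmarked samples belong to a series of 11, with 6 KO and 5 WT, and another of 4, with 2 of each. In bulk samples such as these, fewer cells of a type and less RNA per cell cannot be told apart.

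No member differed between the unmarked KO and WT samples after adjustment. limma called 0 of the 23 probe sets at an adjusted p under 0.05, where 0.0133% of all probe sets were called. Every adjusted p of the 23 was 1.00. Without adjustment, 2 probe sets were higher in KO at p under 0.05, both of Mapt, where the share over all probe sets was 1.54%, and 0 were lower, where the share was 1.68%. The difference was above 0 for 13 of the 23 probe sets, with a median of 0.06 on the log2 scale, beside 22737 of all 45037 and a median of 0.00. For 20 of the 23 the 95% confidence interval lay within 2-fold in either direction, as it did for 94.5% of all probe sets. The standard errors of the members ran from 0.11 to 0.35 with a median of 0.22, beside a median of 0.20 over all probe sets.

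**Figure D1:**
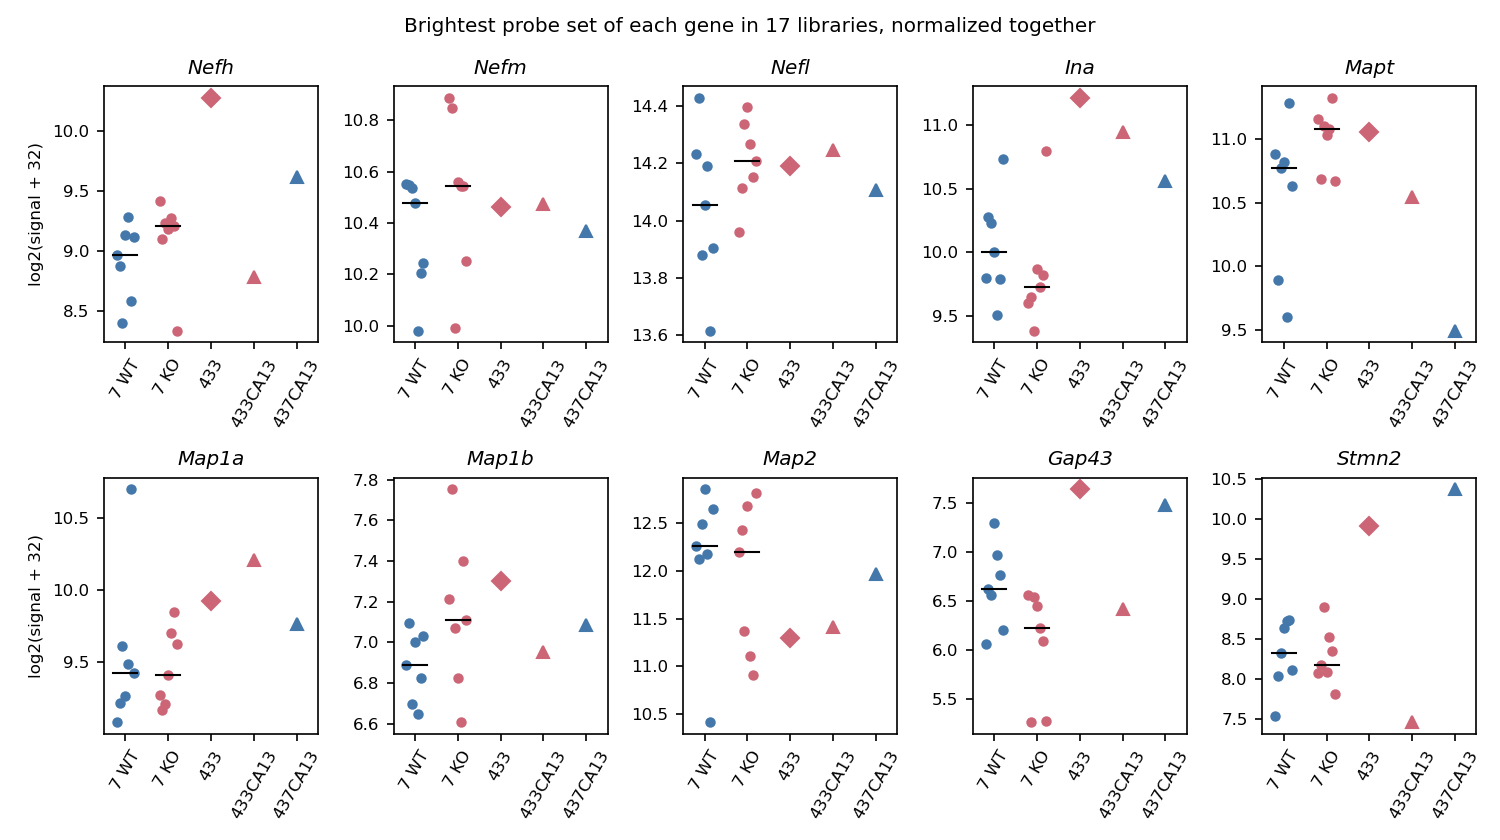
Level of the brightest probe set of each of the 10 genes, as log2(signal + 32) after normalization of all 17 arrays together, with a separate vertical axis per gene. Circles are the 7 WT and the 7 KO samples other than 433, each with a bar at its median, the diamond is the library labelled 433 and triangles are the libraries marked CA13. The KO and WT circles overlap for every gene, while 433 and 437CA13 stand above both for Stmn2, Nefh and Gap43.

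The neurofilament subunits showed small differences. The brighter Nefl probe set of the light subunit, 1426255_at, lay at 13.61, 14.04 and 14.41 (lowest, median, highest) in WT and at 13.95, 14.19 and 14.38 in KO. Signals averaged 17123 ± 3684 in the 7 WT and 18334 ± 2035 in the 8 KO samples (mean ± SD). Every KO sample thus fell inside the WT range. The difference, KO minus WT, was 0.16 (standard error 0.11, 95% confidence interval -0.08 to 0.40, or 0.944- to 1.32-fold), the smallest standard error among the 23. The other Nefl probe set, 1454672_at, lay at 12.72, 13.72 and 13.96 in WT and 13.28, 13.67 and 13.98 in KO, with a difference of 0.06 (-0.28 to 0.40).

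Nefm, whose gene lies beside Nefl on chromosome 14 (Nefl at chr14:68083863-68089095 and Nefm at chr14:68119545-68125004 in GRCm38.p6, 30450 bases apart, and whose probe set is 1422520_at), was at 9.99, 10.48 and 10.56 in WT and 9.996, 10.55 and 10.90 in KO. Most samples of both groups overlapped, and the highest KO values stood above the WT range. The difference was 0.15 (standard error 0.14, interval -0.15 to 0.45), and it was 0.15 again without the library labelled 433.

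Nefh, the heavy subunit, which carries the long phosphorylated tail of the filament (chr11:4938754-4948064, probe set 1424847_at), was at 8.40, 8.97 and 9.29 in WT and 8.34, 9.23 and 10.29 in KO. The value of 10.29 belonged to the library labelled 433, and the other 7 KO samples reached at most 9.42. The difference was 0.35 (standard error 0.22, interval -0.11 to 0.81, two-sided exact permutation p = 0.154). It was 0.20 (-0.18 to 0.58) without that library. All 3 subunits had a difference above 0 in both fits, and none had an interval that left out 0.

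Ina, whose product joins these subunits (chr19:47014681-47025327), had differences below 0 in all 3 probe sets. The brightest, 1448991_a_at, lay at 9.51, 10.01 and 10.74 in WT and 9.39, 9.78 and 11.23 in KO, with 11.23 in the library labelled 433. The groups overlapped across nearly their whole range. The difference was -0.04 (standard error 0.26, interval -0.59 to 0.50), and -0.22 (-0.67 to 0.24) without that library. The other probe sets, 1418178_at and 1448992_at, differed by -0.18 and -0.01, and by -0.28 and -0.09 without it.

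Mapt, the gene of tau (chr11:104229409-104332090), held the 2 probe sets that passed the unadjusted threshold, and its 4 probe sets did not move together. The brightest, 1455028_at, lay at 9.60, 10.78 and 11.29 in WT and 10.68, 11.08 and 11.33 in KO. Signals averaged 1561 ± 561 in the 7 WT and 2072 ± 331 in the 8 KO samples (mean ± SD). The groups overlapped: WT samples 41, 393 and MS17 were at 9.89, 9.60 and 10.63, below every KO sample, while the other 4 WT samples were between 10.78 and 11.29. The difference was 0.46 (standard error 0.21, interval 0.02 to 0.90, unadjusted p = 0.0416 and adjusted p = 1.00 from limma). The two-sided exact permutation test gave p = 0.055, and the difference without the library labelled 433 was 0.45 (-0.01 to 0.92, unadjusted p = 0.0558 from limma). It was 0.30 without WT sample 393, and p was under 0.05 in 6 of the 15 fits that each left out 1 sample.

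The dimmest Mapt probe set, 1417885_at, lay at 5.29, 6.52 and 7.06 in WT and 6.04, 7.06 and 7.31 in KO, near the lower end of the scale, where a signal of 0 is at 5. WT samples 41, 437 and 385 were at 5.40, 5.29 and 5.63, below the lowest KO sample, and the other WT samples lay among the KO samples. The difference was 0.66 (standard error 0.30, interval 0.04 to 1.28, unadjusted p = 0.0392 and adjusted p = 1.00 from limma, two-sided exact permutation p = 0.0642). It was 0.63 without the library labelled 433 (unadjusted p = 0.0589 from limma), and p was under 0.05 in 7 of the 15 fits with 1 sample left out. Under the other alternatives its unadjusted p from limma ran from 0.00184 to 0.536. The lowest was with the Gapdh 3' to 5' ratio as a covariate and the highest in the smaller array series alone. The probe sets between these in brightness, 1424718_at and 1424719_a_at, differed by 0.09 (-0.21 to 0.38) and -0.05 (-0.48 to 0.39). Within the larger array series alone the brightest and dimmest probe sets differed by 0.36 and 0.85, and within the smaller one by 0.75 and 0.24. The WT samples low in the 2 probe sets were thus not the same, apart from WT sample 41. KO samples MS15 and 903 were the lowest of their group in both. The probe sets of Mapt disagreed on the size of the difference.

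Oligodendrocytes, the myelinating cells, also make tau. The mean level of 9 oligodendrocyte markers was 9.03 to 10.11 in WT and 9.66 to 10.62 in the 7 KO samples other than 433, and 9.67 in the library labelled 433. The average difference of these markers was 0.43. In KO, 3 of 9 were higher at an unadjusted p under 0.05, where 278 of all 18193 genes were. At an adjusted p under 0.05, 0 of the 9 were. Of the 9, Mog was near the lower end of the scale, at 5.61 to 6.95 in WT. In the 7 KO samples other than 433 Mog was at 5.83 to 6.96. Their part in the Mapt values was not tested.

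The MAP1 genes encode precursors that are cut into a heavy and a light chain. Map1a (chr2:121289590-121310832) was at 9.08, 9.43 and 10.71 in WT and 9.17, 9.52 and 9.93 in KO by its brighter probe set, 1460566_at, with 10.71 in WT sample 392 and every other WT sample at 9.61 or below. All KO samples lay inside the WT range. The difference was -0.02 (standard error 0.21, interval -0.46 to 0.42), and that of the other probe set, 1455779_at, was 0.07 (-0.39 to 0.53).

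Map1b (chr13:99421464-99516602) was read by 3 dim probe sets. The brightest, 1421850_at, was at 6.63, 6.87 and 7.08 in WT and 6.59, 7.14 and 7.74 in KO. The KO samples reached both below and above the WT range. The difference was 0.28 (standard error 0.17, interval -0.09 to 0.64, two-sided exact permutation p = 0.0794), and the other 2 probe sets, 1450397_at and 1421851_at, differed by -0.11 and 0.03.

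Map2, the dendritic member (chr1:66175202-66442583), had the largest standard error of the 23. Its brightest probe set, 1434194_at, was at 10.43, 12.26 and 12.85 in WT and 10.92, 11.79 and 12.81 in KO. Sample 392 was the lowest WT sample, with the next at 12.13. Of the 8 KO samples, 391, 390, 433 and 384 were between 10.92 and 11.38 and the other 4 between 12.20 and 12.81. The difference was -0.29 (standard error 0.35, interval -1.03 to 0.46), and it was -0.57 without sample 392 (unadjusted p = 0.0634 from limma). Samples 392, 391 and 390 belong to the smaller array series. With array series as a term the difference was -0.33 (unadjusted p = 0.227 from limma). The next probe sets in brightness, 1421328_at and 1440699_at, differed by -0.03 and -0.08, and the fourth, 1421327_at, whose WT samples lay between 5.15 and 5.81 and so at the lower end of the scale, by 0.36 (-0.07 to 0.80).

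Gap43 (chr16:42248552-42340651) moved further from 0 without the library labelled 433. Its 1 probe set, 1423537_at, was at 6.05, 6.60 and 7.28 in WT and 5.26, 6.32 and 7.63 in KO. These levels are near the lower end of the scale, with mean signals of 70.3 in WT and 54.0 in KO. The value of 7.63 belonged to the library labelled 433, and without it the KO samples reached at most 6.55, below 4 of the 7 WT samples. The difference was -0.38 (standard error 0.30, interval -1.01 to 0.25, unadjusted p = 0.222 from limma) with that library. It was -0.58 (standard error 0.25, interval -1.11 to -0.05) without it, with an unadjusted p = 0.0353 and an adjusted p = 1.00 from limma and a two-sided exact permutation p = 0.049. It was then the 1 member probe set lower in KO at an unadjusted p under 0.05, where 1.76% of all probe sets were, and 0 were higher. With the library labelled 433CA13 in its place the difference was -0.53. Within the larger and the smaller array series it was -0.26 and -0.72, and without KO sample 903 or MS15, the lowest of the group, it was -0.24. Of the 15 fits that each left out 1 sample, the unadjusted p from limma was under 0.05 in 1, the fit without 433.

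Newborn neurons of the dentate gyrus, which extend their axons in the adult, carry growth cone transcripts, and the mean level of 4 of their markers was 7.90 to 9.35 in WT and 7.48 to 8.87 in the 7 KO samples other than 433. The average difference was -0.47, and -0.36 without 433. Of the 4 markers 1, Sox11, was lower at an unadjusted p under 0.05, where 276 of all 18193 genes were. Their part in the Gap43 values was not tested.

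Stmn2, the other growth cone gene (chr3:8509527-8561604), was at 7.52, 8.32 and 8.73 in WT and 7.80, 8.25 and 9.92 in KO by its brighter probe set, 1423280_at. The library labelled 433 held the value of 9.92, and the other 7 KO samples reached at most 8.90. The difference was 0.18 (standard error 0.28, interval -0.40 to 0.76) with that library and -0.03 (-0.48 to 0.42) without it. The dimmer probe set, 1423281_at, differed by 0.14, and by 0.02 without it.

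**Figure D2:**
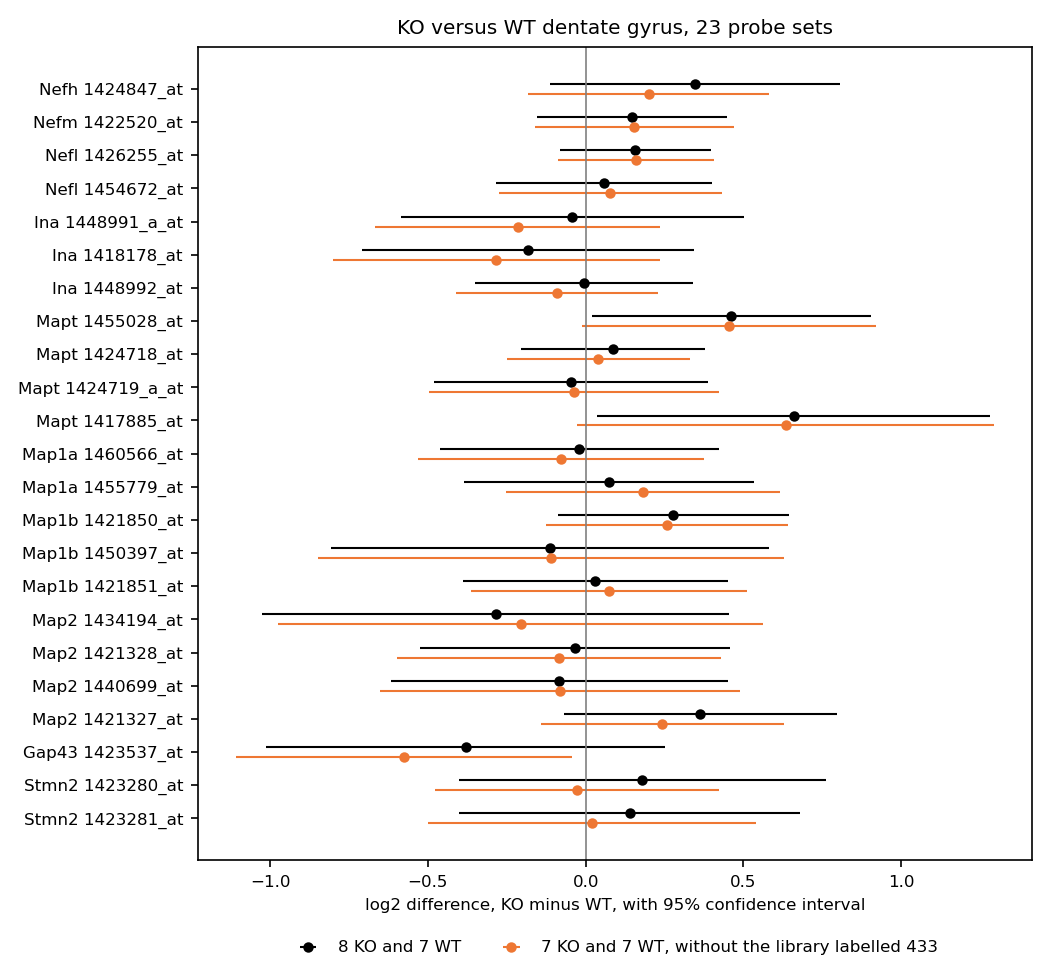
Difference between unmarked KO and WT samples for the 23 probe sets of the 10 genes, on the horizontal axis as a log2 difference with its 95% confidence interval from limma. Black points compare 8 KO with 7 WT samples and orange points leave out the library labelled 433. The black intervals leave out 0 for 2 Mapt probe sets, at 0.46 and 0.66, and the orange intervals for Gap43 alone, at -0.58.

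The libraries of the marks 433 and 437 gave a second view, since their granule and CA markers lay far apart. The library labelled 437CA13 had a mean level of 7.83 for the granule markers and 10.10 for the CA markers, and the unmarked library of the same mark 11.33 and 8.08. For mark 433, as given above, the unmarked library is the one with high CA markers. Foxo1 was at 8.52 in 433, 8.22 in 433CA13 and 9.82 in 437CA13, the last below every unmarked WT sample. Each mark gives 1 library of a kind, so the differences below are values without a test, after all 17 arrays were normalized together.

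Stmn2 differed most. Its brighter probe set was at 8.32 in 437 and 10.38 in 437CA13, a difference of 2.05 or 4.15-fold, and the 7 unmarked WT samples lay between 7.53 and 8.73. In mark 433 it was at 9.91 in 433 and 7.46 in 433CA13, a difference of 2.46 or 5.50-fold, with the 7 other KO samples between 7.81 and 8.90. In both marks the library with high CA markers was thus well above every unmarked sample of its genotype, and 433CA13 was below them. The dimmer Stmn2 probe set showed 1.14- and 1.35-fold in the same directions.

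Nefh, the other probe set at least 2-fold higher in the library with high CA markers of both marks, was at 8.41 in 437 and 9.62 in 437CA13 (2.32-fold), where the WT samples lay between 8.41 and 9.29. Library 437 was thus the lowest of the WT samples, whose median was 8.97. Nefh was at 10.28 in 433 and 8.79 in 433CA13 (2.81-fold), where the other KO samples lay between 8.34 and 9.42. The other subunits differed far less: Nefm was at 10.53 and 10.37 in 437 and 437CA13 and at 10.46 and 10.47 in 433 and 433CA13. The brighter Nefl probe set was at 13.88 and 14.11, and at 14.19 and 14.24. The heavy subunit therefore differed between these libraries while both other subunits stayed inside the range of the unmarked samples. The mean of 8 interneuron markers was 9.86 in 437CA13 and 9.89 in 433, against 9.03 to 9.76 in the unmarked samples. Of the 8, 3 (Pvalb, Sst and Vip) were above the unmarked samples of the genotype in both libraries and 4 (Gad2, Slc32a1, Npy and Lhx6) were within their range in both. Gad1 was below the other KO samples in 433, at 11.72 against 12.29 to 12.87, and within the WT range in 437CA13, at 12.04. The part of these cells in the Nefh values was not tested.

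Gap43 was at 6.56 in 437 and 7.48 in 437CA13 (1.89-fold), and at 7.64 in 433 and 6.42 in 433CA13 (2.33-fold). The library with high CA markers was again above every unmarked sample of its genotype, which reached 7.30 in WT and 6.57 in the other KO samples. All 3 Ina probe sets were likewise higher in 437CA13 than in 437, by 1.26- to 1.67-fold, and in 433 than in 433CA13, by 1.14- to 1.31-fold. Of these, 1448992_at stood above the unmarked samples of the genotype in 437CA13 (7.94), 433 (8.12) and 433CA13 (7.94), where WT and the other KO samples reached 7.76 and 7.71. In 433 all 3 were above the other KO samples. The brightest, 1448991_a_at, was above them in 433CA13 too, at 10.95 against at most 10.80.

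The microtubule-associated proteins showed no shared direction. The brightest Mapt probe set was at 10.77 in 437 and 9.49 in 437CA13, a difference of -1.28, and at 11.06 in 433 and 10.54 in 433CA13, a difference of 0.52. The 2 marks thus gave opposite signs for this probe set. The probe sets next in brightness, 1424718_at and 1424719_a_at, were higher in the library with high CA markers of both marks. They differed by 0.43 and 0.12 in mark 437 and by 0.51 and 0.53 in mark 433. The dimmest, 1417885_at, differed by 0.90 in mark 437 and by -0.29 in mark 433. Map1b probe set 1450397_at was at 7.40 and 6.11 in mark 437 and at 6.75 and 6.73 in mark 433. The brightest Map1b probe set, 1421850_at, was higher in the library with high CA markers of marks 437 and 433, by 0.39 and 0.35. The dimmest, 1421851_at, differed by -0.67 and 0.43. The Map1a probe sets differed by 0.15 and -0.28 (1460566_at) and by -0.17 and -0.36 (1455779_at). The brightest Map2 probe set was at 12.49 and 11.97 in 437 and 437CA13 and at 11.30 and 11.41 in 433 and 433CA13, all within the range of the unmarked samples. The Map2 probe set near the lower end of the scale was at 6.63 in 433 and 5.54 in 433CA13.

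Counted over the 23 probe sets, 2 were at least 2-fold higher in 437CA13 than in 437, Nefh and Stmn2, beside 6.55% of all probe sets, and 2 were at least 2-fold lower, of Mapt and Map1b, beside 6.61%. In 433 over 433CA13, 4 were at least 2-fold higher, of Nefh, Stmn2, Gap43 and Map2, beside 6.05%, and 0 at least 2-fold lower, beside 5.94%. Nefh and Stmn2 made up the 2 probe sets that were so in both marks, beside 1.91% of all. The library labelled 437CA13 lay above all 7 WT samples for 4 of the 23 (16.3% of all probe sets) and below them for 1 (14.3%). The library labelled 433 lay above the 7 other KO samples for 9 of the 23 (18.2%) and below them for 1 (17.1%). The 9 were of Nefh, Ina (3 probe sets), Mapt, Map1a, Gap43 and Stmn2 (2 probe sets). The library labelled 433CA13 lay above them for 4 (14.2%) and below them for 4 (15.1%). The shares of members above the range in 437CA13, and on both sides of it in 433CA13, are near those of all probe sets.

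**Figure D3:**
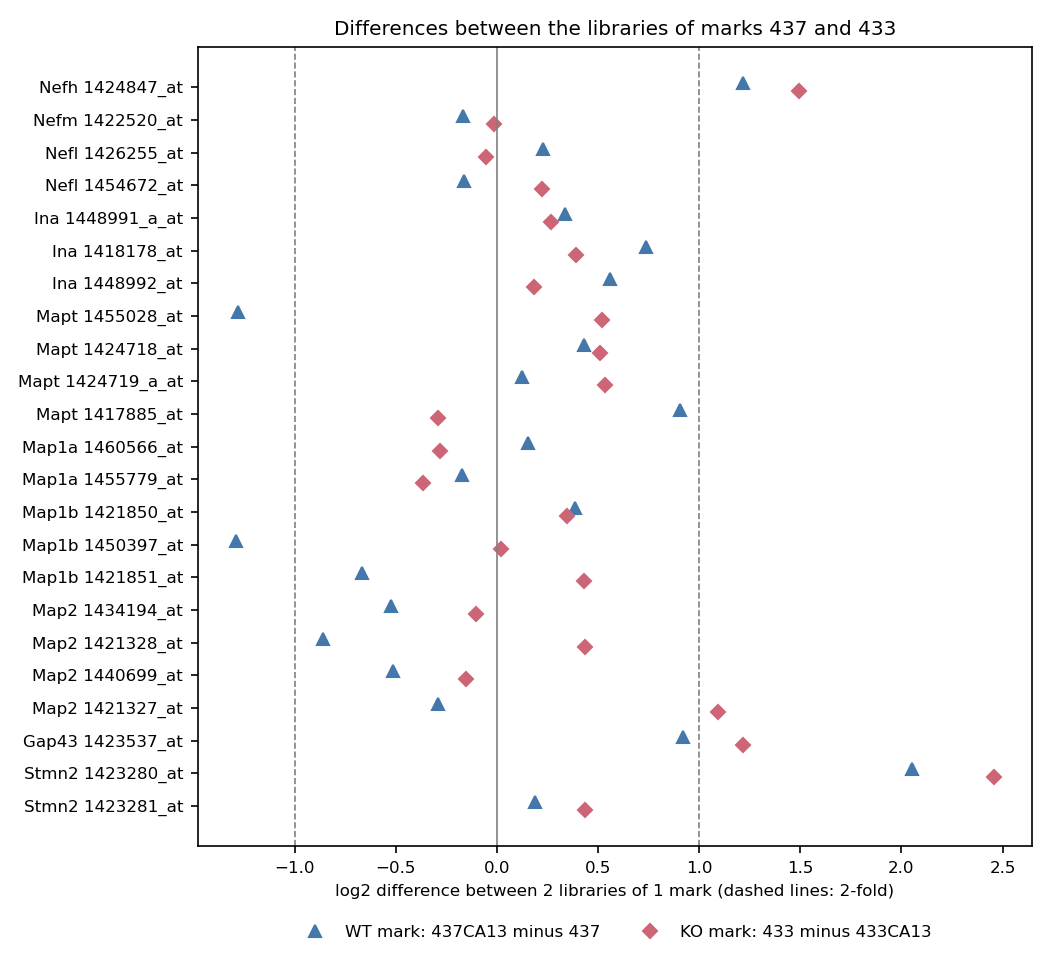
Difference between the 2 libraries of a mark for the 23 probe sets, as a log2 difference on the horizontal axis, with dashed lines at 2-fold. Triangles are 437CA13 minus 437 (WT) and diamonds are 433 minus 433CA13 (KO), 1 library each and so without an error bar. Stmn2 1423280_at at 2.05 and 2.46 and Nefh at 1.22 and 1.49 lie beyond 2-fold in both, and Mapt 1455028_at has opposite signs, at -1.28 and 0.52.

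Genes that act beside the members were compared in the same way, with the brightest probe set of each gene. Of 103 such genes in 9 lists, 98 were measured. limma called 0 of the 98 at an adjusted p under 0.05. At an unadjusted p under 0.05, 0 were higher in KO and 1 was lower, where 278 and 276 of all 18193 genes were. The median difference was 0.02, beside 0.01 over all genes.

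The 6 other intermediate filament genes had a median of 0.05, and the smallest p among them belonged to Vim, which encodes vimentin (-0.39). The 23 other microtubule-associated and plus-end proteins had a median of 0.07 and a range of -0.28 to 0.32, with Clasp1, a plus-end stabiliser, at 0.18. The 8 other stathmins and collapsin response mediator proteins had a median of -0.05, with Dpysl5, which acts in neurite growth, at -0.27. The 5 measured severing enzymes had a median of 0.12, with Katnal2, a katanin-like subunit, at 0.30.

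The enzymes that phosphorylate or dephosphorylate tau and neurofilaments showed a similar spread: the 16 measured had a median of 0.05, and Cdk5, a kinase of both, was at -0.41 (interval -1.04 to 0.22). The 11 cytolinkers and proteins of the membrane skeleton had a median of -0.02, with Sptbn4, the spectrin of the initial segment and nodes, at -0.26. The 7 other growth cone membrane proteins had a median of 0.04, with Marcks, which binds actin at the membrane, at -0.31 by its brightest probe set and between -0.48 and 0.28 over its 7 probe sets. The 15 measured genes of axon maintenance and degeneration had a median of 0.01 and a range of -0.25 to 0.20, with Trim2, a ubiquitin ligase that acts on the light neurofilament subunit, at 0.18.

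The 7 genes of the neuronal injury response, a programme that is switched on when an axon is cut, had a median of -0.16. Sox11, a transcription factor of that programme and of newborn neurons, was the 1 gene at an unadjusted p under 0.05. It was at -0.67 (standard error 0.26, unadjusted p = 0.0212 and adjusted p = 1.00 from limma), and at -0.46 without the library labelled 433, where its level was 9.02 against 10.36 to 11.33 in the other KO samples and 10.45 to 11.59 in WT. Jun, another factor of that programme, was at -0.59 (unadjusted p = 0.0781 from limma) and at -0.27 (unadjusted p = 0.0321 from limma) without that library. That made 2 genes lower at an unadjusted p under 0.05 in that comparison, where 319 of all 18193 genes were.

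**Figure D4:**
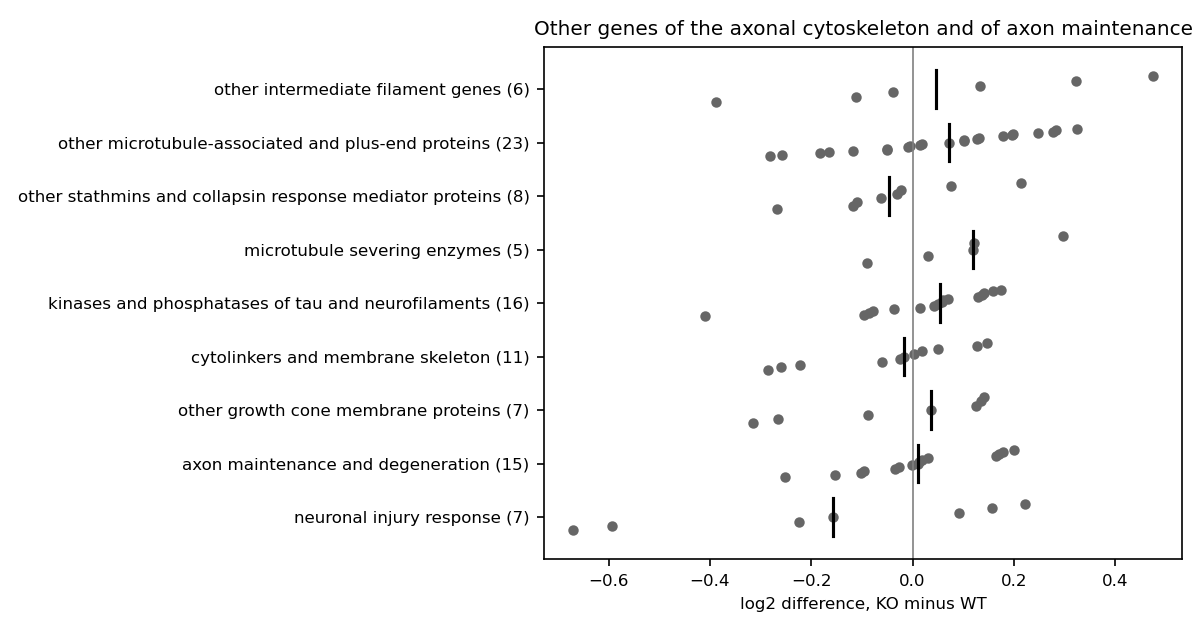
Difference between KO and WT dentate gyrus for 9 lists of genes of the axonal cytoskeleton and of axon maintenance, as a log2 difference on the horizontal axis, with the number of measured genes in brackets. Each point is the brightest probe set of a gene, from 8 KO and 7 WT samples, and the bar is the median of the list. The medians lie between -0.16 for the injury response and 0.12 for the severing enzymes.

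Sequence upstream of an annotated start site was at hand for 4 of the members, Map2, Map1a, Map1b and Ina, as windows of 250 bases from RefSeq (GRCm38.p6). They were searched on both strands for GTAAACA, the core of the FOXO element that the deleted factors bind. The letters TATAAA stood for the TATA box and the letters GGGCGG for the GC box, and none of the 3 holds another. The FOXO element was in 0 of the 4 windows and in 3.17% of all 32851 windows. The TATA box was in 1 of the 4, that of Map1b, 99 bases before the start site, and in 12.4% of all. The GC box was in all 4 and in 32.7% of all windows. For Map2 and Map1a the start site used for the window lies inside the span given above, so that 127 and 12 bases of those windows are within the gene. Windows of Map1b and Map2 are printed to show both kinds, with the TATA box of Map1b and the GC boxes of the printed strand of Map2 in capitals. The Map1b window is chr13:99516603-99516852 on the minus strand and the Map2 window chr1:66175079-66175328 on the plus strand, each written 5′ to 3′.
Map1b: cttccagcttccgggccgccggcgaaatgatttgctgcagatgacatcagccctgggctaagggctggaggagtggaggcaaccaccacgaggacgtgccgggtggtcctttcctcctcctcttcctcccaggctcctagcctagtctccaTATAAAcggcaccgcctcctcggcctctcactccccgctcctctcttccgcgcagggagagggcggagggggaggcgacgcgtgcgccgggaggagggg
Map2: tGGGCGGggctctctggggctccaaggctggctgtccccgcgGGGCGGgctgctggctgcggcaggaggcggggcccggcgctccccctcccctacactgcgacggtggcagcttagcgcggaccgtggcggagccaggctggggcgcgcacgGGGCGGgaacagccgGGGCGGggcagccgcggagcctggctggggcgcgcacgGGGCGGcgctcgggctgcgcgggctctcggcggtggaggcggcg
A match of letters is a description of the window and not a binding site, and a window without a match says nothing of the factor.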

How the data were processed

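RNA of 15 dentate gyrus samples (8 KO, 7 WT) and of 2 samples marked CA13 was read on Affymetrix mouse arrays. The values the authors deposited are signal intensities on a linear scale, scaled to a common trimmed mean (500, with 2% trimmed at each end, in every column). MAS5 is named in the submitters' processing notes but RMA and SAM in the study's methods, so the path set for linear values was used. No depth applies to arrays, and their number limits the precision. Platform annotation named the probe sets.

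The 64 control probe sets were left out, log2(signal + 32) was taken and arrays were quantile normalized, 15 for KO against WT and 17 for the CA13 values. limma 3.58.1 in R 4.3.3 (lmFit, eBayes with trend) was fitted over 45037 probe sets with no dim filter, with Benjamini-Hochberg adjustment. Exact permutation tests were two-sided. Every member probe set is named, and per list the gene with the smallest p or each gene under 0.05 unadjusted. Members and lists were chosen with earlier results of these data known. Single samples of a group were described after their values were seen. Alternatives covered a smaller (1) and a larger pseudocount, quantile normalization, a dim filter at a signal of 100, array series, the Gapdh 3' to 5' ratio, array weights, trend, SAM with 100 permutations and leaving out samples. The steps were tested on simulated data.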

Additional observations from a re-analysis of the deposited data

Results flagged for a closer look

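The lowest and the highest sample of each group were compared with the others of the group in 46 groups of values, and 4 stood apart from the nearest other sample by more than Dixon's critical value, where chance gives about 1 in 20. WT sample 392 accounted for 3 of the 4. It was at 12.72 for Nefl 1454672_at, with the next WT sample at 13.48, and at 10.43 for the brightest Map2 probe set, with the next at 12.13. It was at 10.71 for the brighter Map1a probe set, with the next at 9.61. KO sample 212 was at 9.71 for Mapt 1424719_a_at, with the next KO sample at 8.997. Sample 392 belongs to the smaller array series, and its Gapdh 3' to 5' log2 ratio of 5.06 was the lowest of the WT samples. Its part in these values was not tested.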

How the results depend on the processing

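No member probe set passed an adjusted p of 0.05 under any alternative. Of 293 differences recomputed under 13 alternatives, 276 kept their sign and 17 did not. Of 345 with 1 sample left out in turn, 34 did not keep theirs. The cause of these sign changes was not tested. SAM, the fit without trend and the dim filter left each difference they kept as it was, so their values could not change sign. The unmarked KO library whose markers go against its label is left out in both sets, so those values are counted in each. The dim filter removed Mapt 1417885_at and Gap43. Under every alternative that kept them, the 2 Mapt probe sets under an unadjusted p of 0.05 and Gap43 kept their sign. With 1 sample left out they were at 0.30 to 0.58 and 0.50 to 0.79 for Mapt and -0.58 to -0.24 for Gap43. The pseudocount set the size of the dim ones: with 1 and with the larger pseudocount, Mapt 1417885_at was at 1.26 and 0.30 and Gap43 at -0.86 and -0.15.

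With 1 sample left out, the count of members at an unadjusted p under 0.05 was 0 to 3 higher (3 without KO sample MS15) and 0 to 1 lower, and of list genes 0 to 1 and 1 to 2. Over all 45037 probe sets, 636 to 882 were higher (811 without MS15) and 698 to 959 lower. Ranges that crossed 0 were -0.216 to 0.0726 and -0.0918 to 0.048 (Ina 1448991_a_at and 1448992_at), -0.0216 to 0.181 and -0.0973 to 0.17 (Map1a 1455779_at and 1460566_at), -0.11 to 0.11 and -0.276 to 0.0467 (Map1b 1421851_at and 1450397_at), -0.14 to 0.12 and -0.269 to 0.0365 (Map2 1421328_at and 1440699_at), -0.16 to 0.10 (Mapt 1424719_a_at), -0.0879 to 0.119 (Nefl 1454672_at) and -0.0274 to 0.277 (Stmn2 1423280_at).

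Without the library labelled 433, 0 members were higher and 1 lower, 2 list genes were lower, and Stmn2 1423280_at was at -0.0274. With 433CA13 in its place, 1 member was higher and 1 lower, 2 list genes were lower, and Map1a 1460566_at was at 0.015, Map1b 1421851_at at -0.0226 and Stmn2 1423280_at at -0.13. In the larger array series alone, 1 member was higher, 1 list gene was higher and 3 lower, and Nefl 1454672_at was at -0.0422, Ina 1448992_at at 0.0305, Map1a 1460566_at at 0.12 and Map2 1421328_at at 0.11. In the smaller one alone, 0 members and 1 list gene were higher and 2 list genes lower, and Ina 1448991_a_at was at 0.13, Ina 1418178_at at 0.18, Mapt 1424718_at at -0.0819, Map1b 1421851_at at -0.00965, Map2 1440699_at at 0.33 and the Stmn2 probe sets at -0.30 and -0.23. Array weights gave 1 list gene higher and Map1a 1460566_at at 0.0554, the dim filter 1 member higher, and the larger pseudocount Ina 1448992_at at 0.00138. Of all 45037 probe sets, 780 were higher and 794 lower without 433, and 712 and 776 with 433CA13 in its place. In the larger series 889 were higher and 1006 lower, and in the smaller 836 and 934. Array weights gave 997 higher, and the dim filter 251 of 21952. At least 2-fold, 4 members were higher in 437CA13 with a pseudocount of 1, and with the larger one 1 was lower there and 2 were higher in 433. No paired analysis of KO against WT was possible because the labels of these groups share no mark. Marks 433 and 437 each gave 1 library of a kind, so the comparison within a mark had no test. The 6 dimmest member probe sets, with a mean signal near or under 100, have the least certain fold changes.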
